A study of Mus musculus with 4 samples.

Results

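Input-rich windows without H3K4me3 are stretches of 4 kb where the unselected chromatin of MDER 10T cells gave at least 3 times as many reads as its surroundings and where H3K4me3 was not above that input. They were found by cutting the 19 autosomes into 4 kb tiles. A tile was kept when its whole-cell extract (WCE) count was at least 12, was at least 3 times the mean WCE count of the 12 tiles lying 20 to 40 kb away on both sides, and exceeded the H3K4me3 count after scaling H3K4me3 to the WCE total. The rule took 1220 of 615232 tiles (0.198%), which together span 4880 kb. They are 38.4% of the 3176 input-rich tiles; the other 1956 carried at least as much scaled H3K4me3 as WCE.

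MDER 10T cells are mouse fibroblasts with an estrogen-inducible MyoD1, by the title of the series, and the labels mention no estrogen treatment. The study holds 4 chromatin libraries, 1 each from immunoprecipitation with Abcam antibodies to H3K4me3 (AB8580), H3K27me3 (AB6002) and H3K9me3 (AB8898), and 1 of WCE that saw no antibody. The cells were grown in phenol red-free DMEM/F12 with 10% FCS, and their chromatin was sonicated to about 500 bp, amplified by 18 cycles of ligation-mediated PCR and size-selected at 150 to 350 bp. With 1 library per antibody and no separate cultures named, no spread between replicates can be given, and every test below compares places within 1 library and covers counting error only.

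WCE is sequenced to show how many reads a place yields before any antibody selects for a mark. Sequence that is present in more copies in the cells than in the assembled genome gathers reads from all of its copies at the few places where the assembly holds it, and such places stand out in every library made from the same cells. Open chromatin, which shears more easily, also yields more input reads, and it is the usual home of H3K4me3, the mark of active promoters. H3K27me3 is laid down by Polycomb group proteins over silenced genes, and H3K9me3 marks heterochromatin, including the satellite repeats near centromeres.

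After keeping 1 read per signed position, the autosomes held 2977697 WCE, 3086567 H3K4me3, 2933567 H3K27me3 and 2101444 H3K9me3 reads. The 1220 windows took 0.833% of the WCE reads, 0.394% of the H3K4me3 reads, 0.583% of the H3K27me3 reads and 0.669% of the H3K9me3 reads. The windows were chosen by their WCE and H3K4me3 counts, so those values are given as a description and not tested. H3K27me3 and H3K9me3 were not used by the rule. All positions are on the mm8 mouse genome, counted from 1. No mm8 gene annotation or sequence was used here, so the windows are named by position and their bases are not shown.

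Most of the windows lay close to the limits of the rule. The WCE count had a minimum of 12, a median of 14 and an upper quartile of 17, but a maximum of 2021. The ratio of WCE to its flanks had a median of 3.46 (quartiles 3.16 and 4.11). Exactly 12 reads were found in 279 windows, while 381 tiles with 11 reads met the other conditions. A ratio of exactly 3 was found in 88 windows, and the highest ratio among the tiles left out for this reason was 2.97. Scaled H3K4me3 over WCE had a median of 0.397, reached 0.965 at most inside the set, and was 1.0005 in the closest tile outside it. In 27 windows H3K4me3 had no read at all, and in 789 it was under 0.5 times WCE.

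A small number of windows stood far above the others. There were 57 with 30 or more WCE reads, a limit chosen after the values were seen, and they held 29% of the WCE reads of all 1220 windows. The same 57 held 34.6% of the H3K4me3 reads, 41.4% of the H3K27me3 reads and 47.7% of the H3K9me3 reads. The remaining 1163 windows had 12 to 29 WCE reads each. Shape, repeated positions and the other marks are given for each group below.

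The highest pile-up of the set was a run of 3 adjoining windows on chromosome 17, from 39448001 to 39460000, which held 12.6% of the WCE reads of the whole set. Its central window, starting at 39452001, had 2021 WCE, 1145 H3K4me3, 2699 H3K27me3 and 2189 H3K9me3 reads. The flanks averaged 1.67 WCE, 0.583 H3K4me3, 0.5 H3K27me3 and 1.33 H3K9me3 reads per tile. All 4 libraries rose at the same place, the unselected input included. Over its own flanks the ratio was 1213 for WCE, 5398 (95% exact interval 2477 to 14722) for H3K27me3 and 1642 (1009 to 2877) for H3K9me3. The windows on either side, starting at 39448001 and 39456001, had 539 and 568 WCE reads, 587 and 707 H3K27me3 reads, and 424 and 498 H3K9me3 reads. Counts here are limited by the collapse to 1 read per position, since a window has only 8000 signed positions. As deposited, the central window held 2912 WCE, 1376 H3K4me3, 4594 H3K27me3 and 3235 H3K9me3 reads.

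The second run of this kind lay on chromosome 2, from 98460001 to 98472000. Its 3 windows held 684 WCE, 353 H3K4me3, 359 H3K27me3 and 508 H3K9me3 reads, with flank means of WCE no higher than 1.92. The window starting at 98464001 had 409 WCE, 224 H3K4me3, 204 H3K27me3 and 319 H3K9me3 reads. Scaled to equal library totals, H3K9me3 over H3K27me3 was 2.18 (95% exact interval 1.83 to 2.62) in that window. In the central chromosome 17 window the same ratio was smaller, at 1.13 (1.07 to 1.20). The chromosome 2 windows were also rich in reads that the aligner placed at 2 positions, with 1383, 1900 and 406 such WCE listings in the windows starting at 98460001, 98464001 and 98468001.

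Other high ratios lay beside tiles that held few reads or none. The window on chromosome 5 from 3000001 to 3004000, at the first read of the chromosome, had 335 WCE, 211 H3K4me3, 202 H3K27me3 and 323 H3K9me3 reads. Of its 12 flank tiles, 10 held no read in any library. H3K9me3 had no read in the flanks, so its ratio has no upper limit. It was 1292 against a floor of 3 reads over the flank tiles, and the 95% exact interval began at 1045. The H3K27me3 ratio of 2424 rests on 1 flank read and has an interval of 430 to 96211. On chromosome 14 the windows starting at 18208001 and 39184001 had 119 WCE reads each, with 125 and 121 H3K9me3 reads and 68 and 90 H3K27me3 reads, and 6 and 1 of their 12 flank tiles were empty. On chromosome 1 the adjoining windows starting at 87420001 and 87424001 had 43 and 24 WCE reads over flanks of 0.167 and 0.0833 reads per tile. The windows of chromosome 18 starting at 3004001 and 3008001 had 63 and 33 WCE reads over flanks of 0.250. The last 4 windows are among the 10 with the highest ratio, with 7 or 8 empty flank tiles each and counts well below those of the runs above.

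**Figure D1:**
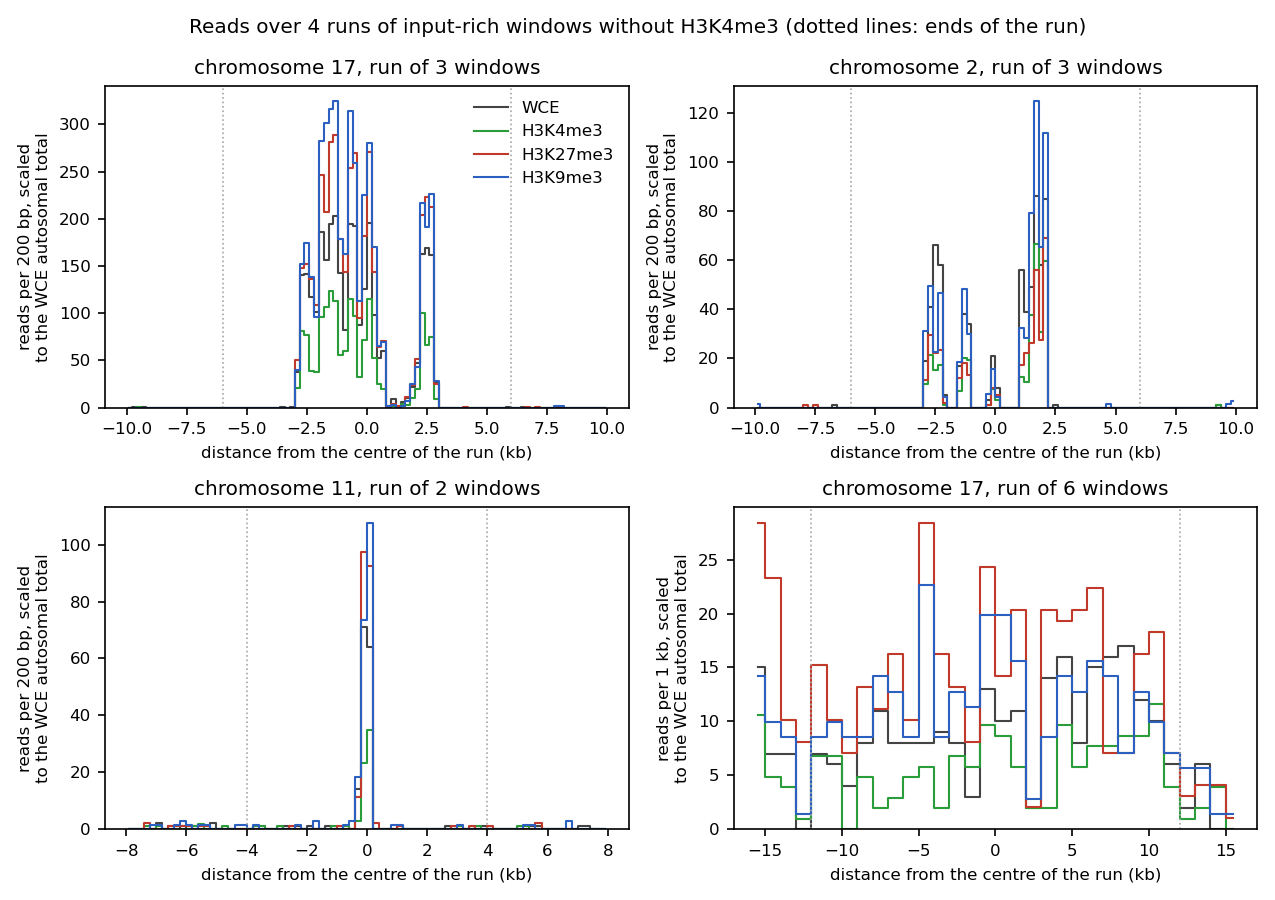
Reads of the 4 libraries over 4 runs of windows, scaled to the WCE autosomal total, against distance from the centre of the run in kb; the dotted lines mark the ends of the run. Bins are 200 bp for the runs on chromosomes 17 (3 windows, 3128 WCE reads), 2 and 11, and 1 kb for the broad run of 6 windows on chromosome 17. In the first 3 panels all libraries are high in the same part of the run, though not every library has its maximum in the same bin. In the first panel this part is wide, and the central window has WCE reads in 19 of its 20 bins. In the fourth panel WCE, H3K27me3 and H3K9me3 rise over several kb with no single peak, and H3K4me3 stays nearer its surroundings.

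At 200 bp resolution 3 shapes are described here from named windows, and only the first of them was set by a limit. A 4 kb window has 20 such bins, so an even spread puts 5% of the reads in each. The densest bin held a median of 20% of the WCE reads over all 1220 windows (quartiles 16.7% and 25%). The 1163 windows with 12 to 29 reads had a median of 20%, the same as the 37839 other tiles with 12 to 29 WCE reads. A shape sharper than in other tiles was not detectable at this depth. In the 57 windows with at least 30 reads the median was 23.3% (quartiles 14.7% and 38.1%), beside 16.2% in 259 other tiles of that depth. The 25 windows with at least 50 WCE reads reached 32.2%, beside 13.5% in 18 other tiles. The difference was not tested, because WCE chose the windows.

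The first shape is a narrow block. In 21 windows 50% or more of the WCE reads fell in a single 200 bp bin, and 11 of these were among the 57. The sharpest was the window on chromosome 2 starting at 98468001, where 85 of 86 WCE reads lay in the bin from 98468001 to 98468200. The marks fell in the same bin there, with 62 of 62 H3K4me3, 68 of 68 H3K27me3 and 79 of 80 H3K9me3 reads. On chromosome 11 the adjoining windows starting at 108824001 and 108828001 share 1 block that the tile border cuts. The bin from 108827801 to 108828000 held 71 of 91 WCE reads and the bin from 108828001 to 108828200 held 64 of 67. In those 2 bins H3K27me3 had 96 of 109 and 91 of 96 reads, and H3K9me3 had 52 of 72 and 76 of 79. H3K4me3 had 24 of 32 and 36 of 38. All 4 libraries placed most of their reads in the same bin of each of these windows.

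In another pair of narrow blocks all libraries again had most of their reads in the same bin, but the ratios to flanks differed between marks. The window on chromosome 9 starting at 24292001 had 34 of its 39 WCE reads in 1 bin, with 8 H3K4me3, 21 H3K27me3 and 24 H3K9me3 reads in the window. That bin held 7 of the H3K4me3, 17 of the H3K27me3 and 19 of the H3K9me3 reads. The ratio of the window to flanks was 6.5 for WCE, 4.50 (95% exact interval 2.59 to 7.55) for H3K27me3 and 6 (3.52 to 9.99) for H3K9me3. H3K4me3 stood at 0.67 times its flanks (0.28 to 1.35), which held 12 H3K4me3 reads per tile. On chromosome 4 the window starting at 69864001 had 30 of its 36 WCE reads in 1 bin, with 25 of 27 H3K4me3, 10 of 14 H3K27me3 and 30 of 32 H3K9me3 reads. WCE was 8 times its flanks in this window and H3K4me3 was 3.52 times (2.20 to 5.46). H3K9me3 was called there, with 32 reads and a ratio of 10.1 (6.11 to 16.6; adjusted p = 7.0e-14 by the exact binomial test over all tiles). H3K27me3 was not, with 14 reads, a ratio of 2.51 (1.301 to 4.51) and an adjusted p of 0.132 by the same exact test, but it passed the threshold with reads as deposited, at a ratio of 2.70, and against flanks 40 to 80 kb away, at 4.46.

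**Figure D2:**
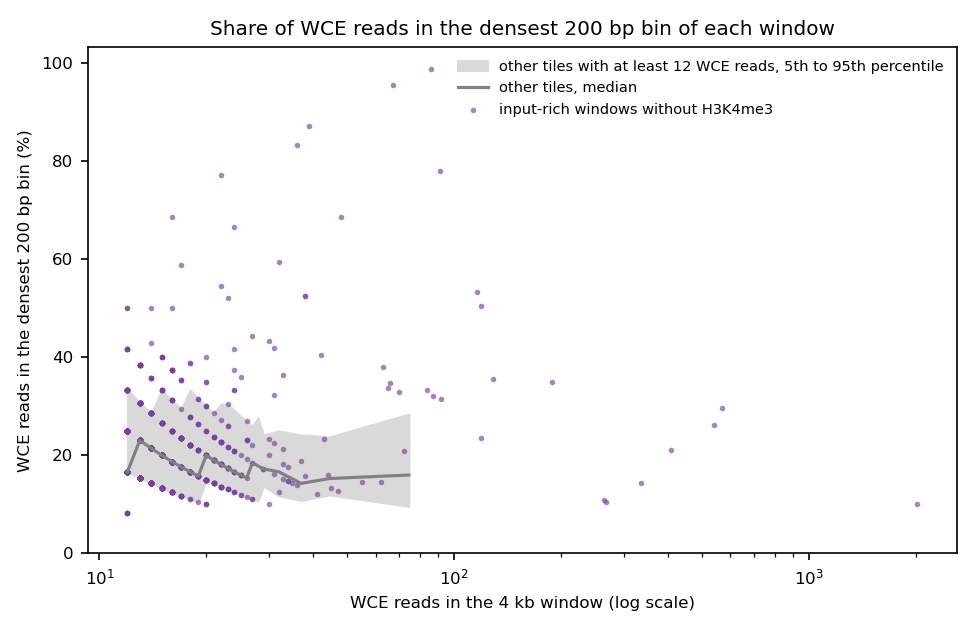
Share of WCE reads in the densest 200 bp bin of each input-rich window without H3K4me3 (points) against its WCE count on a log scale; the grey line and band give the median and the 5th to 95th percentile of other tiles with at least 12 WCE reads. Most points with 12 to 29 reads lie within the band, while 11 of the 57 windows with 30 or more reads lie at 50% or above.

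The second shape is uneven and spread over most of the window. The 2021 WCE reads of the chromosome 17 window starting at 39452001 put 10.0% in their densest bin, and those of the chromosome 5 window starting at 3000001 put 14.3% there, with reads in 19 and 15 of the 20 bins. On chromosome 11 the windows starting at 3044001 and 3052001, which were chosen after their values were seen, had 265 and 268 WCE reads with 10.9% and 10.4% in the densest bin. Their flanks were high as well, at 74.8 and 89.2 reads per tile, so that they passed the rule inside a region of raised input. H3K4me3 was close to WCE in both, at 0.892 and 0.914 after scaling. These 2 windows held only 6 and 3 WCE listings with 2 positions.

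A broad rise over several windows with no single block is the last shape and is described with the marks below. It was uncommon. The 1220 windows formed 1168 runs of adjoining windows, of which 1131 (96.8%) were a single window, 29 were pairs and 8 had 3 windows or more. The longest were 2 runs of 6 windows, on chromosome 9 from 3016001 to 3040000 and on chromosome 17 from 6384001 to 6408000. Not every run had the broad shape. The densest bin of a window held 20.8% to 35.7% of its WCE reads in the chromosome 9 run. In the chromosome 17 run it held 13.3% to 18.9%.

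Libraries shared their densest bin in about as many of the 57 high windows as not. The densest WCE bin was also the densest of H3K4me3 in 27 of the 57, of H3K27me3 in 31 and of H3K9me3 in 29, ties included. In the 25 windows with at least 50 WCE reads these counts were 14, 18 and 20, and in the 32 with 30 to 49 reads they were 13, 13 and 9. Pooled over the reads of the 57, the bin that was densest in WCE held 24.2% of the WCE reads, 22.2% of the H3K4me3 reads, 21.8% of the H3K27me3 reads and 22.6% of the H3K9me3 reads. In the 1163 windows with 12 to 29 reads the densest WCE bin held 21% of the WCE reads but 10.0% of the H3K4me3 reads, 8.21% of the H3K27me3 reads and 9.54% of the H3K9me3 reads. Other tiles of the same depth gave 12.1%, 7.53% and 7.52%. Without the 3 chromosome 17 windows the pooled shares in the high windows were 30.2%, 26.6%, 28.9% and 28.7%. A bin chosen for being densest in WCE is high in WCE by that choice.

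**Figure D3:**
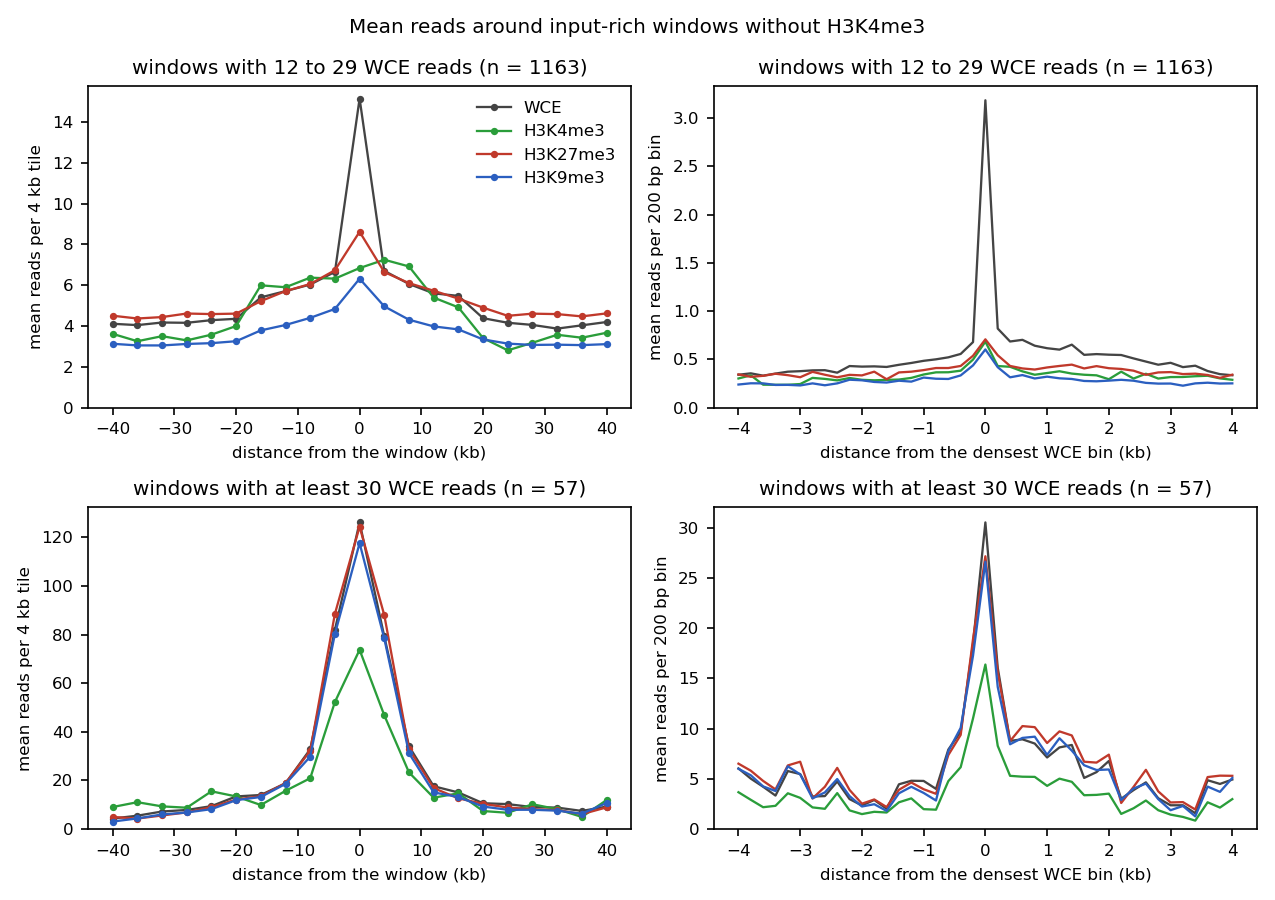
Mean reads per 4 kb tile by distance from the window (left) and per 200 bp bin by distance from the densest WCE bin, the first one where several tie (right), for the 1163 windows with 12 to 29 WCE reads (top) and the 57 with at least 30 (bottom). The WCE step between 16 and 20 kb in the top left panel is set by the rule, which uses the tiles from 20 to 40 kb. In the bottom panels the 3 chromosome 17 windows supply 3128 of the 7186 WCE reads.

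Measures of repeat-like pile-ups were high in a part of the 57 high windows. Reads per distinct signed position were 1.504 in WCE over the 57 windows, beside 1.07 over the 1163 others and 1.07 over the autosomes. It was 1.57 in the 25 windows with at least 50 WCE reads and 1.18 in the 32 with 30 to 49. The mark libraries had 1.31 in H3K4me3, 1.51 in H3K27me3 and 1.59 in H3K9me3 over the 57 windows. At least 5 WCE reads at 1 signed position were found in 16 windows (1.31%), all of them among the 57, beside 0.0289% of other tiles with 12 or more reads. In the chromosome 2 window starting at 98464001 the most reads at 1 position were 26 in WCE, 21 in H3K4me3, 10 in H3K27me3 and 39 in H3K9me3. WCE reads per distinct position were 2.17 there, 4.68 in the chromosome 14 window starting at 39184001 and 5.09 in the chromosome 2 window starting at 98468001. At the other end, 15 of the 57 had no WCE read listed at 2 positions, and the chromosome 17 window starting at 6212001 had no repeated WCE position. High windows have more chances of a repeated position, since a larger part of their positions is taken.

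Exact read starts also recurred between libraries. Of the 7186 distinct WCE positions in the 57 windows, 20.9% were also a read start in H3K4me3, 36.8% in H3K27me3 and 34.4% in H3K9me3. In the 1163 windows with 12 to 29 reads the shares were 0.346%, 0.363% and 0.494%. Other tiles with 12 or more WCE reads gave 0.904%, 0.284% and 0.219%. These shares rise with the density of reads and cannot by themselves tell a repeated sequence from a deeply covered one.

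Reads listed at 2 positions match the assembly in 2 places, and reads with more matches were dropped by the aligner. The 1220 windows held 9247 of the 190374 autosomal WCE listings of this kind, or 4.86%, beside 0.833% of the reads with 1 position. They held 2.97% of the listings in H3K4me3, 3.22% in H3K27me3 and 6.03% in H3K9me3. The listings were concentrated, with 5497 of the 9247 (59.4%) in 5 windows, and 1000 windows had none. Those 5 included the chromosome 2 windows starting at 98460001 and 98464001 and the chromosome 14 window starting at 39184001, the last with 1192 listings. The others were the chromosome 17 window starting at 39452001 with 612 and the chromosome 5 window starting at 3000001 with 410. At least 100 listings were found in 15 windows, and 19 had more listings than reads with 1 position. Of the windows with 12 to 29 reads 84.7% had no listing, beside 87.1% of other tiles of that depth. Their listings per deposited WCE read with 1 position were 0.0711, beside 0.0143 in those other tiles.

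The strands were balanced. Pooled over the 1220 windows 49.9% of the WCE reads were on the forward strand. The forward share fell outside 25% to 75% in 52 windows (4.26%), beside 4.44% of other tiles with at least 12 WCE reads.

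The other marks were above their own surroundings in most windows. A window was called for a mark when its reads exceeded those of its own 12 flank tiles in a one-sided exact binomial test, with a Benjamini-Hochberg adjusted p under 0.05 over all autosomal tiles and a ratio of at least 2. H3K27me3 was called in 211 of 1220 windows (17.3%), where 1.57% of all tiles were called. H3K9me3 was called in 144 (11.8%), where 0.600% of all tiles were called. The median ratio to flanks was 1.76 for H3K27me3 and 1.83 for H3K9me3, beside 0.885 and 0.878 over all tiles. H3K27me3 exceeded its flanks in 985 windows (80.7%) and H3K9me3 in 996 (81.6%), and both did so in 829. Over all tiles tested the shares were 42.9% for H3K27me3 and 42.9% for H3K9me3. In input-rich tiles with H3K4me3 they were higher than in the windows, at 88.0% and 94.3%. The input-rich tiles with H3K4me3 gave higher values for both marks, with medians of 2.05 and 2.51. Of these 1956 tiles 490 (25.1%) and 432 (22.1%) were called, a difference that was not tested. H3K4me3, which the rule held below WCE, also exceeded its own flanks in 959 of the 1220 windows (78.6%), beside 36.4% of all tiles. Its median ratio was 2.18, beside 0.667 over all tiles, and 5.84 in the 57 windows with at least 30 WCE reads. No test was made for H3K4me3.

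The flanks used for these ratios are those that the rule had already required to be low in WCE, and they were often empty. A flank tile without a read in any library was found beside 43.5% of the windows, 28.2% of all tiles and 23.7% of the input-rich tiles with H3K4me3. Against the 6 tiles lying 8 to 16 kb away, which the rule did not use, fewer windows were called. H3K27me3 was then called in 121 windows (9.92%; 0.912% of all tiles) with a median ratio of 1.47, and H3K9me3 in 89 (7.30%; 0.371% of all tiles) with a median of 1.46. Over all tiles the medians were 0.9 and 0.889. Of these calls 111 and 85 were also called against the farther flanks. This comparison was added after the data had been seen.

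**Figure D4:**
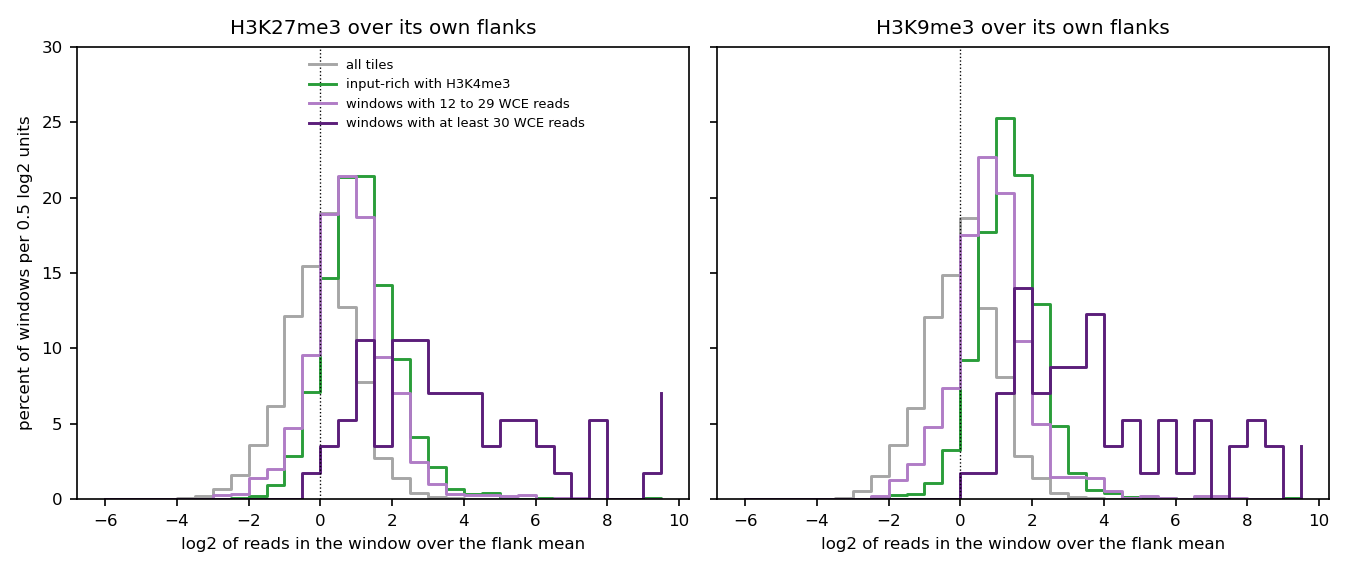
Distribution of the log2 ratio of reads in a window to the mean of its flank tiles 20 to 40 kb away, for H3K27me3 (left) and H3K9me3 (right), as percent of windows per 0.5 log2 units; windows with 0 reads of the mark are not drawn and extremes are placed in the end bins. The windows with 12 to 29 WCE reads have medians of 1.71 and 1.76 on the linear scale and the 57 with at least 30 have medians of 10.4 and 11.7, beside 0.885 and 0.878 over all tiles.

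The calls rose with the WCE count. Of the 57 windows with at least 30 WCE reads, 50 were called for H3K27me3 and 53 for H3K9me3, 50 for both and 4 for neither, and their median ratios were 10.4 and 11.7. Among other tiles with at least 30 WCE reads 10.8% were called for H3K27me3 and 16.6% for H3K9me3, and among input-rich tiles with H3K4me3 of that depth 28.4% and 35.3%. All 25 windows with at least 50 WCE reads were called for both marks. Of the 1163 windows with 12 to 29 WCE reads 161 were called for H3K27me3 and 91 for H3K9me3, with medians of 1.71 and 1.76. Against the tiles 8 to 16 kb away the 57 gave 38 calls for each mark and the 1163 gave 83 and 51. Other tiles with 12 to 29 WCE reads that are not input-rich by the rule were called in 5.63% for H3K27me3 and 2.62% for H3K9me3, with medians of 1.13 and 1.19. Among the 1220 windows 102 were called for both marks, 109 for H3K27me3 alone, 42 for H3K9me3 alone and 967 for neither. The same split is not given for all tiles, so it only describes these windows.

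A mark that rises with the input is different from a mark that rises over the input. Scaled to equal library totals and pooled, the 57 windows had 1.001 times as much H3K27me3 as WCE, 1.32 times as much H3K9me3 and 0.564 times as much H3K4me3. These pooled values lean on the 3 chromosome 17 windows from 39448001 to 39460000. They supplied 3128 of the 7186 WCE reads, 3993 of the 7087 H3K27me3 reads and 3111 of the 6701 H3K9me3 reads. The 1163 others had 0.578, 0.591 and 0.436, values that the selection for a high WCE count lowers. Tested directly against WCE, 5 windows (0.410%) were called for H3K27me3, where 0.673% of all tiles were called, and 2 (0.164%) for H3K9me3, where 0.0209% were called. Nothing is read from these counts, because WCE chose the windows.

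The marks can be set against each other without WCE. Pooled over the 57 high windows, H3K9me3 over H3K27me3 was 1.32 after scaling to equal autosomal totals (95% exact interval 1.28 to 1.36). The interval covers counting error and not the differences between windows. This value too leans on the 3 chromosome 17 windows from 39448001 to 39460000, whose own ratios were lower, at 1.01, 1.13 and 0.983. In 28 of the 57 the interval of the single window lay above 1 and in 3 it lay below. Over the 1163 others the pooled ratio was 1.02 (0.993 to 1.05), and of 256 with at least 20 reads of both marks together the interval lay above 1 in 30 and below 1 in 30. It was 1.15 (1.13 to 1.17) in the input-rich tiles with H3K4me3 and 0.964 (0.960 to 0.968) in other tiles with at least 12 WCE reads. The high windows as a group thus held relatively more H3K9me3, and single windows went either way.

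The run of 6 windows on chromosome 9, from 3016001 to 3040000, leaned to H3K9me3 throughout. It held 513 WCE, 284 H3K4me3, 287 H3K27me3 and 511 H3K9me3 reads. In the window starting at 3024001, its highest, 129 WCE, 79 H3K4me3, 70 H3K27me3 and 143 H3K9me3 reads were counted. H3K9me3 there was 10.4 times its flanks (8.25 to 13.1; adjusted p = 5.5e-70 by the exact binomial test) and 2.85 times H3K27me3 (2.13 to 3.85). WCE itself was 10.3 times its flanks in that window (8.09 to 13.1), and H3K27me3 was 11.5 times (8.17 to 16.2). All 6 windows were called for both marks, and the scaled H3K9me3 over H3K27me3 ratio ran from 1.94 to 2.85. The window on chromosome 9 starting at 35052001, chosen after its values were seen, was similar, with 116 WCE, 76 H3K27me3 and 105 H3K9me3 reads and 297 WCE listings with 2 positions.

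Chromosome 17 between 6000001 and 7000000 held 13 windows, more than any other megabase, and these had the broad shape. The run from 6384001 to 6408000 had 25, 35, 33, 37, 55 and 45 WCE reads in its 6 windows, 45, 65, 61, 56, 68 and 48 H3K27me3 reads, and 25, 41, 37, 33, 40 and 26 H3K9me3 reads. The rise had no single peak, and the densest bin held 13.3% to 18.9% of the WCE reads. H3K27me3 was at most 18.1 times its flanks (12.2 to 27.3; adjusted p = 3.5e-40 by the exact binomial test) and H3K9me3 at most 16.4 times (9.99 to 27.2; adjusted p = 2.0e-23), both in the window starting at 6388001. WCE in that window was 11.4 times its flanks (6.94 to 18.5). H3K4me3 had 16 to 34 reads per window and flanks of 17.9 to 21.6. Its ratio was between 0.89 and 1.38 in the first 4 windows, and 1.59 (1.06 to 2.30) and 1.58 (1.07 to 2.26) in the windows starting at 6400001 and 6404001. Few of these reads had a second position, with 0 to 20 such WCE listings per window.

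The neighbouring run on chromosome 17, from 6200001 to 6216000, had 41, 22, 17 and 44 WCE reads, with 70, 33, 38 and 72 H3K27me3 reads and 27, 13, 31 and 31 H3K9me3 reads. It leaned to H3K27me3, unlike the chromosome 9 run. In the window starting at 6212001 WCE was 52.8 times its flanks (26.2 to 118). There H3K27me3 was 86.4 times its flanks (44.4 to 188; adjusted p = 2.2e-64 by the exact binomial test), and H3K9me3 over H3K27me3 was 0.60 (0.38 to 0.93). In the window starting at 6208001 that ratio was 1.14 (0.69 to 1.88), so the lean was not seen in every window of the run. Of the 13 windows in this megabase 11 were called for each mark, with median ratios of 6.34 for H3K27me3 and 5.74 for H3K9me3.

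Another group of windows lay on chromosome 17 between 13000001 and 14000000. All 6 were called for both marks, although their WCE median was only 16.5 reads and their maximum 22. Their flanks were thin, and the median ratios were 14.5 for H3K27me3 and 12 for H3K9me3. Over whole chromosomes the density ran from 1.18 windows per 1000 tiles on chromosome 16 to 2.73 on chromosome 17 and 2.78 on chromosome 9. The first 1 Mb of assembled sequence of the autosomes held 32 windows (2.62%) on 0.775% of the tiles, and 14 of the 57 high windows were there. Elsewhere the windows were scattered, with 830 megabases holding at least 1 and 575 of them holding just 1.

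Among the windows with few WCE reads some were called for H3K27me3 or H3K9me3 and not for the other. These examples were chosen after their values were seen. The window on chromosome 9 starting at 99684001 had 15 WCE, 3 H3K4me3, 46 H3K27me3 and 7 H3K9me3 reads, and H3K27me3 was 10.8 times its flanks (7.10 to 16.4; adjusted p = 3.6e-22 by the exact binomial test). On chromosome 8 the window starting at 12400001 had 16 WCE, 6 H3K4me3, 60 H3K27me3 and 6 H3K9me3 reads. Its H3K27me3 flanks were raised too, at 15.5 reads per tile, and the ratio was 3.87 (2.84 to 5.20; adjusted p = 9.2e-13 by the same exact test). On chromosome 11 the window starting at 6668001 had 33 H3K27me3 and 4 H3K9me3 reads beside 13 in WCE. In these 3 windows H3K27me3 stood above its surroundings and H3K9me3 was not called. H3K4me3 was 3.27 times its flanks (1.09 to 8.32) in the chromosome 11 window.

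The converse was also found, with H3K9me3 called and H3K27me3 not. On chromosome 11 the window starting at 116036001 had 34 WCE, 14 H3K4me3, 8 H3K27me3 and 31 H3K9me3 reads. It is among the 57 high windows, and its WCE was 3.96 times its flanks (2.61 to 5.89). H3K9me3 was 4.65 times its flanks (2.97 to 7.12; adjusted p = 4.6e-07 by the exact binomial test), while H3K27me3 was at 1.03 times (0.43 to 2.12). On chromosome 7 the window starting at 23812001 had 17 WCE, 12 H3K4me3, 5 H3K27me3 and 31 H3K9me3 reads, and H3K9me3 over H3K27me3 was 8.66 (3.34 to 28.5). On chromosome 12 the windows starting at 67976001 and 75720001 had 24 and 16 WCE reads, 26 and 27 H3K9me3 reads, and 8 and 9 H3K27me3 reads. H3K27me3 was not called in them, but stood at 3.69 (1.44 to 8.40) and 2.7 (1.15 to 5.65) times its flanks. H3K4me3 stood at 6.4 (2.35 to 16.1) and 3.86 (1.60 to 8.41) times its flanks. WCE listings with 2 positions numbered 26 and 41 in these chromosome 12 windows, 3 in the chromosome 7 window and 0 in the chromosome 11 window.

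In a few windows the input was high and no mark count exceeded its flank mean. In 63 windows both H3K27me3 and H3K9me3 were below their flank means, and in 19 H3K4me3 was too. Those 19 had a median of 14 WCE reads and a median of 2 reads in each mark library. The one with the most WCE reads lay on chromosome 10 from 120824001 to 120828000, with 23 WCE reads over flanks of 7.42 and 5 H3K4me3, 7 H3K27me3 and 5 H3K9me3 reads. On chromosome 7 the window starting at 49468001 had 17 WCE reads and 0 H3K9me3 reads over H3K9me3 flanks of 6.33 reads per tile. A further window of that chromosome, starting at 18380001, had 20 WCE, 4 H3K4me3, 9 H3K27me3 and 5 H3K9me3 reads. The intervals were wide. H3K27me3 was 0.988 (0.386 to 2.13) times its flanks in the chromosome 10 window and 0.991 (0.441 to 1.95) times in the window starting at 18380001. None of these 3 had WCE reads with 2 positions, and each had at most 5 WCE reads in a bin. How many of the windows near the limits of the rule would pass it again in another WCE library cannot be told from 1 library.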

How the data were processed

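The deposited files hold signed read positions, a minus sign marking the reverse strand, from 1 library each of H3K4me3, H3K27me3, H3K9me3 and WCE; the authors made these lists of positions from their reads, and all counts used here were computed from them. Reads were aligned to mm8 with options e 70, k 2, m 2, n 2 and l 36, per the file headers, and with Bowtie, per the submitters' processing notes; its version is not given in the sources used here. Reads with more than 2 matches are dropped by these options, so highly repeated sequence is not measured. Whether positions start at 0 or 1 is not stated. Reads with 1 position were collapsed to 1 per signed position and moved 60 bp along their strand, and reads with 2 positions were only tallied. Tiles, the rule, the binomial test and the 95% exact intervals are as given in the report; ratios against flanks without reads use a floor of 3 reads. Copies made by PCR cannot be told from separate molecules, so intervals cover counting error only. The test was tried on simulated data. The windows named are those with the 10 highest WCE ratios, the 5 highest WCE counts, the 5 largest densest-bin shares, the 5 with most listings at 2 positions, up to 5 with the highest ratio among those called for each mark, and the 5 longest runs; exceptions are marked. The windows and these lists were chosen with earlier results of these data known. H3K4me3 was multiplied by 0.965 to match WCE. Computation used numpy 2.4.6 and scipy 1.17.1 under Python 3.11.15, with figures from matplotlib 3.10.9.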

Additional observations from a re-analysis of the deposited data

How the results depend on the processing

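No alternative turned the direction of a median ratio: H3K27me3 and H3K9me3 stayed above their flanks in every setting tried. The number of windows depends on the limits of the rule. It was 2745 with WCE at least 2.5 times the flanks, 349 at 4 times, 206 with at least 20 WCE reads, 3845 with at least 8 and 789 with H3K4me3 below 0.5 times WCE. Wider WCE limits gave more calls but a smaller share of windows called. The narrower H3K4me3 limit gave fewer calls and also a smaller share.

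In the order H3K27me3 then H3K9me3, the called windows and the median ratios moved as follows. At 2.5 times the flanks 334 (12.2% of the windows) were called for H3K27me3 and the medians were 1.49 and 1.58. At 4 times 120 (34.4%) were called for H3K27me3 and the medians were 3 and 2.67. With at least 20 WCE reads 81 (39.3%) and 80 (38.8%) were called, with medians of 2.29 and 2.498. With at least 8 these were 344 (8.95%) and 227 (5.90%), with 1.66 and 1.68. With H3K4me3 below 0.5 times WCE they were 104 (13.2%) and 64 (8.11%), with 1.67 and 1.67. Scaling H3K4me3 by 100 kb bins, a factor of 1.69 in place of 0.965, gave 131 (14.9%) and 76 (8.63%) calls and an H3K9me3 median of 1.71. Flanks 40 to 80 kb away gave 217 (17.7%) calls and a median of 2 for H3K9me3. Reads as deposited gave medians of 1.66 and 1.71, and 2 kb tiles gave 1.55 and 1.73. The other settings were added after the data were seen. Flank tiles with reads only gave an H3K9me3 median of 1.71, and windows with 12 to 29 WCE reads gave 91 H3K9me3 calls. Windows with at least 30 gave 50 and 53 calls and medians of 10.4 and 11.7. Tiles 8 to 16 kb away gave 121 and 89 calls and medians of 1.47 and 1.46. The cause of these moves was not tested.

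The median share of WCE reads in the densest 200 bp bin was 23.1% with reads as deposited, 18.8% with reads not moved and 26.3% in 2 kb tiles, which have fewer bins. It was 19.05% with flanks 40 to 80 kb away, 21.4% at 4 times the flanks, 19.05% with at least 20 WCE reads, 22.2% with at least 8 and 23.3% in windows with at least 30. No paired analysis was possible because each antibody has 1 library, and no library could be left out for the same reason. With a median of 14 WCE, 7 H3K27me3 and 6 H3K9me3 reads per window, small differences between marks were not detectable in most windows.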
